A study of Mus musculus with 2 samples.

Results

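Phospholipid flippases and scramblases were examined in livers whose hepatocytes had lost Lpcat3 (L-Lpcat3 KO). The set held 9 genes of the 18193 with a probe set on the array: 6 P4-ATPase genes (Atp8a1, Atp8b1, Atp9a, Atp10d, Atp11a and Atp11b), the subunit gene Tmem30a, and the scramblase genes Ano6 and Plscr1. The 9 genes were named with earlier results of these data known, and their probe sets were then taken by gene symbol, as all those that the platform annotation gives to one of the 9. This gave 25 probe sets of 45101.

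L-Lpcat3 KO livers came from Lpcat3fl/fl mice carrying an Albumin-Cre transgene, and the controls were Lpcat3fl/fl mice without Cre, so both genotypes carried the floxed allele. All were males put on a western diet at 7 weeks of age for 9 weeks and killed at 16 weeks after a 6 hr fast. RNA from 5 mice per genotype was pooled and hybridized to 1 Affymetrix mouse expression array, giving 2 arrays in all. The albumin promoter drives Cre in hepatocytes. For chow-fed mice, the authors hold that remaining Lpcat3 mRNA likely came from cells without the transgene, such as Kupffer and endothelial cells.

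The 2 leaflets of a cell membrane do not hold the same phospholipids. P4-ATPases (flippases) use ATP to move phosphatidylserine, phosphatidylethanolamine or, for some members, phosphatidylcholine toward the cytosolic leaflet, and most of them need a CDC50 subunit such as Tmem30a to leave the endoplasmic reticulum. Floppases of the ABC family move lipids outward, and scramblases let lipids cross in both directions, which exposes phosphatidylserine on the cell surface. The authors report that Lpcat3 is required to place arachidonate in phosphatidylcholine and phosphatidylethanolamine of mouse liver. In liver the flippase Atp8b1 guards the bile canalicular membrane.

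With 1 pool per genotype, the comparison had no replicate check and no test was made. The number of arrays limits the precision. Values are MAS5 signals in linear units. Signals below the median of all values, 86.6, were raised to that floor, and a probe set at or above it on at least 1 array counted as measured. Ratios are L-Lpcat3 KO over Lpcat3fl/fl. Among probe sets of one gene the log2 ratios had a pooled SD of 0.31 over 5228 genes, which describes disagreement between probe sets and leaves out the spread between mice. Lpcat3 had a signal of 2198 in the L-Lpcat3 KO pool and 5173 in the Lpcat3fl/fl pool (log2 ratio -1.23) on its 1 measured probe set, whose place relative to the floxed part of the gene was not known.

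All 9 genes had a measured probe set, and 19 of the 25 probe sets were measured. The other 6, 4 of Atp8a1 and 1 each of Atp11a and Plscr1, lay below the floor on both arrays. None had the floor on only 1 side. Of the 19, 11 were above 0 and 8 below 0 on the log2 scale. The scramblase genes Ano6 and Plscr1 were higher in L-Lpcat3 KO liver, as were 2 of 3 probe sets of Atp9a and all 3 measured ones of Atp8a1. All 5 probe sets of Tmem30a, and the measured ones of Atp11a and Atp8b1, were lower.

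At 1.5-fold, 7 of the 19 measured member probe sets were higher in L-Lpcat3 KO liver, against 8.23% of the 20847 measured probe sets with 1 gene symbol. The 7 belonged to 4 genes, Atp8a1, Atp9a, Ano6 and Plscr1. Since the genes were not chosen blind to these data, the larger share among members is a description of the chosen set. A single probe set, of Atp11a, was at least 1.5-fold lower, against 4.45% of all. Counted once per gene by its brightest probe set, 4 of 9 members were at least 1.5-fold higher and 1 lower, against 9.15% and 3.86% of 12320 measured genes. The higher count depends on which probe set stands for a gene. Without the _s_at and _x_at probe sets it was 2 of 9 (Atp9a and Ano6, against 9.16% of all genes), with Atp8a1 at a log2 ratio of 0.12 and Plscr1 at 0.43. By the mean of a gene's probe sets it was 1 of 9 (Ano6, against 8.29% of all genes), with Atp8a1 at 0.58, Plscr1 at 0.57 and Atp9a at 0.40. At 2-fold no member probe set was called in either direction, where 2.36% of all probe sets were higher and 0.791% lower, and no member gene was, beside 2.74% of all genes higher and 0.722% lower. Probe sets of one gene share their target, so the 7 are not 7 separate observations.

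The median absolute log2 ratio of the 19 was 0.54, and that of all measured probe sets 0.21. Their signed median was 0.12 over probe sets and 0.31 over genes, beside 0.01 for all probe sets and 0.01 for all genes. The signed median over probe sets was -0.08 when the floor was the 75th percentile and -0.0027 without the _s_at and _x_at probe sets, so it gave no direction for the set. The median over genes was 0.02 with that higher floor, which leaves 7 genes, and 0.12 without the _s_at and _x_at probe sets.

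**Figure D1:**
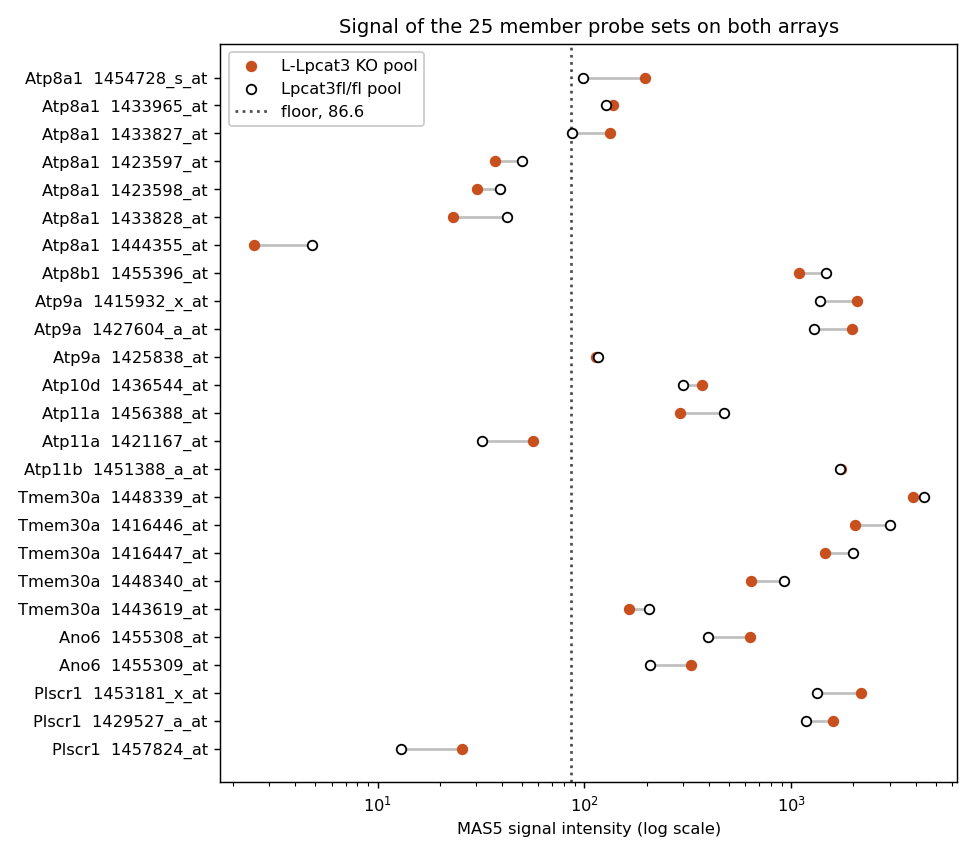
Each row is a member probe set, with its MAS5 signal intensity (log scale) in the L-Lpcat3 KO pool as a filled point and in the Lpcat3fl/fl pool as an open point; the dotted line is the floor of 86.6. Rows are read across and not against each other, since probe sets bind with different strength: all 5 Tmem30a rows have the L-Lpcat3 KO point to the left, and both Ano6 rows have it to the right.

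Ano6 (Tmem16f) encodes a calcium-activated scramblase, known in platelets for exposing the phosphatidylserine on which clotting factors assemble. Its probe set 1455308_at had a signal of 635 in the L-Lpcat3 KO pool and 394 in the Lpcat3fl/fl pool, a 1.61-fold difference (log2 ratio 0.69). On 1455309_at the signal was 326 in L-Lpcat3 KO and 208 in Lpcat3fl/fl liver, a 1.57-fold difference (0.65). Both probe sets gave nearly the same ratio. They were designed from the same source sequence, so they do not give independent readings. With a pseudocount of 50 in place of the floor the second ratio was 0.55, under 1.5-fold.

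Plscr1 encodes an interferon-induced, palmitoylated protein named as a phospholipid scramblase, which also acts in the nucleus and in antiviral defence. Probe set 1453181_x_at read 2185 in the L-Lpcat3 KO pool and 1336 in the Lpcat3fl/fl pool, which was 1.64-fold higher (log2 ratio 0.71). Probe set 1429527_a_at read 1586 in the L-Lpcat3 KO pool and 1176 in the Lpcat3fl/fl pool, 1.35-fold higher (0.43). Both moved the same way, but only the first passed 1.5-fold. It is of the _x_at type, whose probes can match other transcripts, so its signal cannot be given to Plscr1 alone. The third probe set, 1457824_at, was below the floor, at 25.7 in L-Lpcat3 KO and 13.0 in Lpcat3fl/fl liver.

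The RefSeq promoter windows (build GRCm38.p6) of Ano6, Plscr1 and Tmem30a are shown for the sequence before their annotated starts. Ano6 and Plscr1 are the scramblase genes that were both higher, and Tmem30a was lower on all 5 of its probe sets. Each run is 250 bases, written 5′ to 3′ on the gene's strand, and capitals mark GGGCGG, the GC box, on either strand. They lie at chr15:95790593-95790842 (plus strand), chr9:92249944-92250193 (plus strand) and chr9:79793431-79793680 (minus strand).
Ano6: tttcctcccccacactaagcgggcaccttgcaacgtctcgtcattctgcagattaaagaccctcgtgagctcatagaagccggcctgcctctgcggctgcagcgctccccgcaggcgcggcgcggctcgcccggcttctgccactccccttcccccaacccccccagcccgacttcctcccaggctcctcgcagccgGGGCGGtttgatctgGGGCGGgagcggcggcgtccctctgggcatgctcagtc
Plscr1: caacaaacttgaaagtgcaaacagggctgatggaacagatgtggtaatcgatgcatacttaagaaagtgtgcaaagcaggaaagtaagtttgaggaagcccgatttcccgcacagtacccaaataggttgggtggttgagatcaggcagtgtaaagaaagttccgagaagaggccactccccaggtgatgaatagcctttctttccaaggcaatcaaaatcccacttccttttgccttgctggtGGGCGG
Tmem30a: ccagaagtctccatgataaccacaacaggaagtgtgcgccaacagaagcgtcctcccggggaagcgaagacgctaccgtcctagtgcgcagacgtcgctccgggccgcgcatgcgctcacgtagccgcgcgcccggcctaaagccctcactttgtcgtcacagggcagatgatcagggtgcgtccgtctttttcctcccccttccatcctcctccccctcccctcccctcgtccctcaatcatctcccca
The Ano6 window held 2 GC boxes, the Plscr1 window 1 and the Tmem30a window 0. Among windows not shown, that of Atp11a, the member called lower, held 4. The Atp8a1 window, of a member called higher, also held 4, and that of Atp11b (log2 ratio 0.02) held 6. The number of boxes therefore did not go with the direction of the ratio. The base composition differed as well, with 68.4% G and C for Ano6, 62.8% for Tmem30a and 47.2% for Plscr1. Of 32851 such windows of all genes, 32.7% held a GC box. Windows were found for 7 of the 9 members, 10 windows in all, and 7 of the 10 held a GC box. Several of the windows were of Atp9a, some with a GC box and some without, so the 10 are not 10 separate genes. The core of the interferon response element, which is GAAA, any 2 bases and GAAA on either strand, was in 2.98% of all windows and in 0 of the 10, including that of Plscr1. CCAAT (33.8% of all windows) and TATAAA (12.4%) were also in 0 of the 10. No matches of different motifs overlapped here, since the GC box alone was found, and a match or its lack describes these windows only.

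Tmem30a (Cdc50a) is the chaperone and subunit of most P4-ATPases, though Atp9a works without it. Its brightest probe set, 1448339_at, had a signal of 3885 in the L-Lpcat3 KO pool and 4385 in the Lpcat3fl/fl pool (log2 ratio -0.17). The others differed by more: 1416446_at read 2032 in L-Lpcat3 KO and 3018 in Lpcat3fl/fl liver (-0.57), or 67.3% of the control signal. Probe set 1416447_at read 1456 in L-Lpcat3 KO and 1998 in Lpcat3fl/fl liver (-0.46).
All of these were lower in L-Lpcat3 KO liver, and none reached 1.5-fold. The same held for 1448340_at, at 636 in L-Lpcat3 KO and 926 in Lpcat3fl/fl liver (-0.54), and for 1443619_at, at 165 in L-Lpcat3 KO and 206 in Lpcat3fl/fl liver (-0.32). The log2 ratios of the 5 had an SD of 0.17, less than the 0.31 seen within genes in general. Of the 5, 4 come from a single source sequence and the fifth from another, so the agreement rests on 2 sources. The ratio of each was negative under each processing alternative that gave it a value, and 1443619_at had none when the floor was the 75th percentile. Several of these alternatives, such as a lower floor or a pseudocount, could not change the sign.

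Among the P4-ATPases, Atp9a is an endosomal protein that acts in recycling traffic with Mon2 and the Dop1 proteins. Its probe set 1415932_x_at had a signal of 2091 in the L-Lpcat3 KO pool and 1371 in the Lpcat3fl/fl pool (1.52-fold, log2 ratio 0.61). Probe set 1427604_a_at read 1966 in L-Lpcat3 KO and 1287 in Lpcat3fl/fl liver (1.53-fold, 0.61). These 2 come from different source sequences and gave nearly the same ratio, though the probes of the first, an _x_at probe set, can match other transcripts. The third, 1425838_at, did not show the difference, with 114 in L-Lpcat3 KO and 116 in Lpcat3fl/fl liver (-0.03), but it lay close to the floor.

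Atp8a1, a phosphatidylserine flippase of the Golgi and endosomes, was read near the floor throughout. Probe set 1454728_s_at had a signal of 197 in the L-Lpcat3 KO pool and 98.9 in the Lpcat3fl/fl pool, 1.99-fold higher, the largest ratio of any measured member probe set (log2 ratio 0.99). It is of the _s_at type, whose probes can match other transcripts, so this ratio cannot be given to Atp8a1 alone. On 1433827_at the signals were 134 in L-Lpcat3 KO and 87.3 in Lpcat3fl/fl liver (0.62), which was under 1.5-fold with quantile normalization (0.51), loess (0.53) or a pseudocount (0.42). On 1433965_at they were 138 in L-Lpcat3 KO and 127 in Lpcat3fl/fl liver (0.12).
The measured probe sets of Atp8a1 were therefore all higher in L-Lpcat3 KO liver, by amounts that differed more (SD 0.44, n = 3 probe sets) than is usual within a gene. The 2 with the larger ratios share a source sequence. A further probe set from that same source, 1433828_at, was below the floor, at 23.2 in L-Lpcat3 KO and 42.1 in Lpcat3fl/fl liver. The other 3 below the floor lay between 2.53 and 37.1 in L-Lpcat3 KO liver and between 4.82 and 50.2 in Lpcat3fl/fl liver. Each of these unmeasured probe sets read lower in L-Lpcat3 KO liver, but values below the floor have no order.

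Atp11a, a phosphatidylserine and phosphatidylethanolamine flippase of the plasma membrane, had the lowest ratio of the set. Probe set 1456388_at had a signal of 291 in the L-Lpcat3 KO pool and 471 in the Lpcat3fl/fl pool, 1.62-fold lower in L-Lpcat3 KO liver (log2 ratio -0.70). When the floor was the 75th percentile, 405, the L-Lpcat3 KO value lay below the floor and the ratio was bounded at -0.22. The other Atp11a probe set, 1421167_at, was below the floor on both arrays, at 56.2 in L-Lpcat3 KO and 32.0 in Lpcat3fl/fl liver. A single measured probe set therefore carries this result.

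Atp8b1 is the flippase of the bile canalicular membrane whose loss in humans causes progressive familial intrahepatic cholestasis. Its single probe set, 1455396_at, read 1095 in the L-Lpcat3 KO pool and 1472 in the Lpcat3fl/fl pool, or 74.4% of the control signal (log2 ratio -0.43). This did not reach 1.5-fold. Abcb4, the canalicular floppase that delivers phosphatidylcholine to bile, was at 9976 in L-Lpcat3 KO and 8309 in Lpcat3fl/fl liver (0.26).

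The other P4-ATPase genes differed by less. Atp11b, an endosomal flippase gene, read 1741 in L-Lpcat3 KO and 1713 in Lpcat3fl/fl liver on 1451388_a_at (log2 ratio 0.02). Atp10d was at 370 in L-Lpcat3 KO and 299 in Lpcat3fl/fl liver on 1436544_at (0.31), a difference equal to the SD of 0.31 between probe sets. RefSeq lists mouse Atp10d as a transcribed pseudogene in the C57BL/6J assembly, while the human ATP10D protein transports glucosylceramide.

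**Figure D2:**
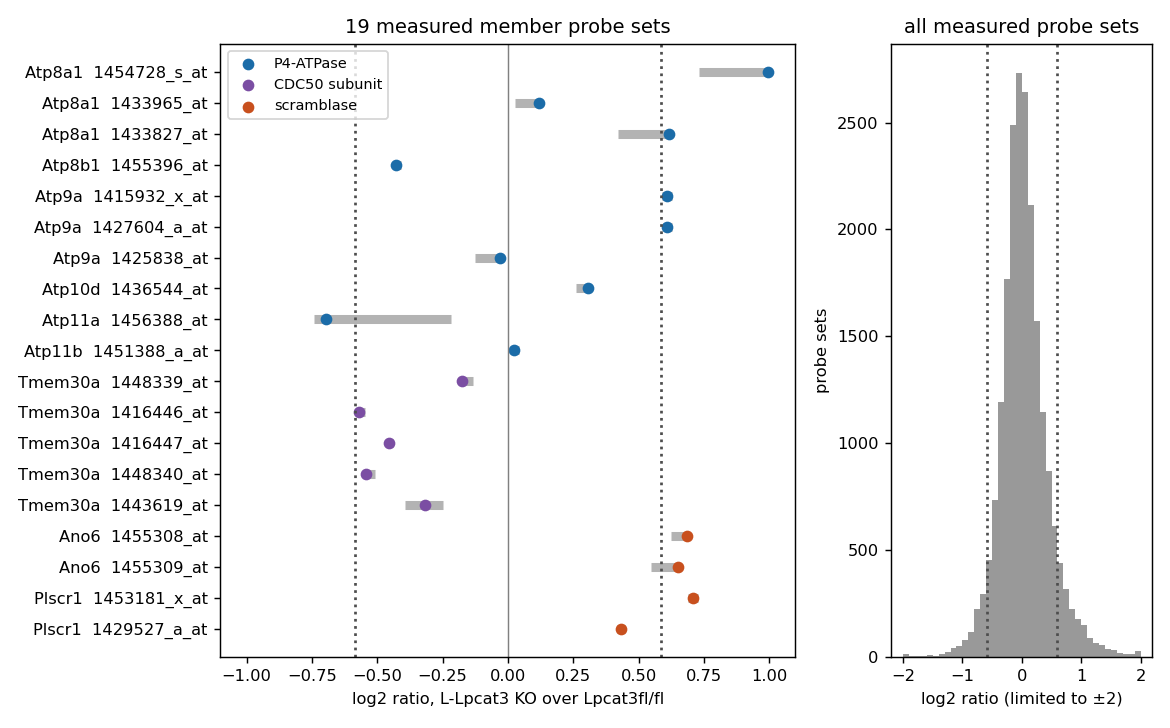
On the left, points are the 19 measured member probe sets at their log2 ratios (L-Lpcat3 KO over Lpcat3fl/fl), grey bars the range over the processing alternatives, and dotted lines 1.5-fold; on the right is the histogram of all measured probe sets. Ano6 and Plscr1 lie at 0.43 to 0.71, the Tmem30a probe sets at -0.57 to -0.17, and the longest bar is that of Atp11a (-0.74 to -0.22).

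Low signals vary more, so the members were also set beside probe sets of like brightness. Of 4367 measured probe sets with a mean signal of 1000 to 5000, 3.82% were higher by 1.5-fold or more in the L-Lpcat3 KO pool and 2.63% lower. Of the 9 member probe sets in this range, 3 were at least 1.5-fold higher (2 of Atp9a and 1 of Plscr1) and none lower. Between 250 and 1000, 7.06% of 7000 were higher and 3.91% lower. Of the 5 members there, both probe sets of Ano6 were higher and that of Atp11a lower. Below 250, 12.9% of 8060 were higher and 6.29% lower, and 2 of the 5 members there, both of Atp8a1, were higher.

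**Figure D3:**
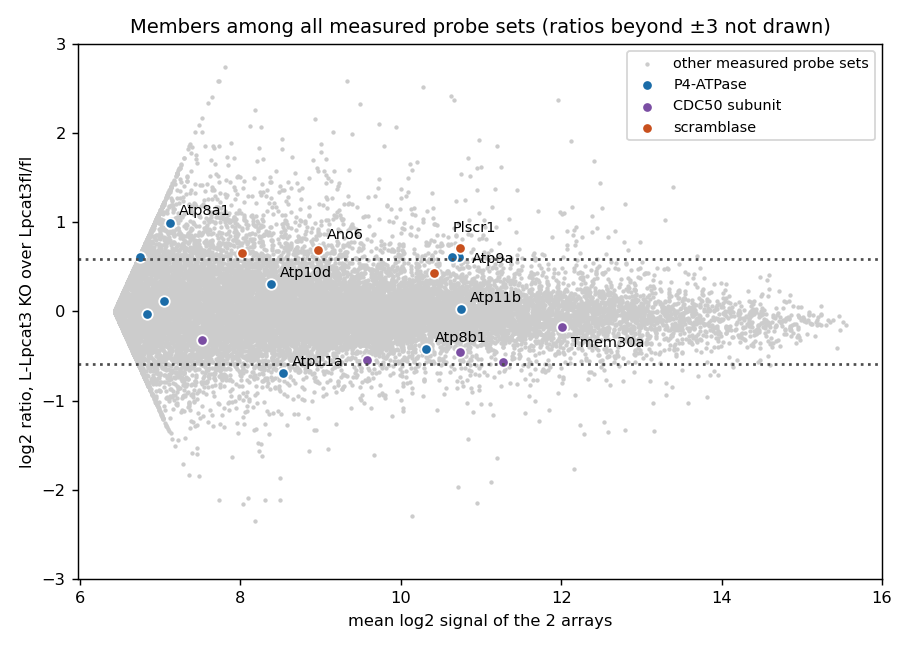
Measured probe sets are plotted by their log2 signal averaged over both arrays (x axis) and by their log2 ratio, L-Lpcat3 KO over Lpcat3fl/fl (y axis); member probe sets are coloured by class, the brightest of each gene is named, and dotted lines mark 1.5-fold. Atp8a1 lies near the left edge, among signals close to the floor, while Plscr1 and Atp9a lie among brighter probe sets.

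The rest of the lipid translocation machinery was read from 6 lists of related genes, with 1 probe set per gene. Of 49 genes, 38 were measured. Of these, 7 were higher by 1.5-fold or more in the L-Lpcat3 KO pool and none lower on that probe set, and none reached 2-fold. In all measured genes 9.15% were at least 1.5-fold higher and 3.86% lower, and at 2-fold 2.74% were higher and 0.722% lower. At these shares few of 38 genes would be lower or reach 2-fold, so those absences do not mark out the lists.

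Among 7 other P4-ATPase and CDC50 genes 1 was called, Atp8b2, at 336 in L-Lpcat3 KO and 182 in Lpcat3fl/fl liver (log2 ratio 0.88). Atp9b, the closest relative of Atp9a, was at 0.30. Atp8a2 and Atp8b3 had the Lpcat3fl/fl side below the floor and were at least 1.33-fold and at least 1.25-fold higher, though the other measured probe set of Atp8a2 was at -0.28. Tmem30b, a second CDC50 subunit gene, read 3772 in L-Lpcat3 KO and 3842 in Lpcat3fl/fl liver (-0.03), a ratio near 0.

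Among 8 other scramblase genes the 2 called were further members of the Plscr family. Plscr4 read 433 in L-Lpcat3 KO and 222 in Lpcat3fl/fl liver (1.95-fold, log2 ratio 0.96), with 0.75 on its other probe set. Plscr3, which encodes a mitochondrial member, read 573 in L-Lpcat3 KO and 365 in Lpcat3fl/fl liver (1.57-fold, 0.65), with 0.53 on its other probe set. Plscr2 was at 1228 in L-Lpcat3 KO and 1336 in Lpcat3fl/fl liver (-0.12). Ano10, of the same family as Ano6, was at 0.33. Xkr8, a scramblase cut by caspases in apoptosis, was at 0.03, and Vmp1, a scramblase of the endoplasmic reticulum, was at -0.24 and -0.60 on its 2 probe sets.

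Of 5 floppase genes 1 was called, Abcc1, an exporter of glutathione conjugates, at 219 in L-Lpcat3 KO and 123 in Lpcat3fl/fl liver (log2 ratio 0.84). Abca7 was at 0.35, Abcg1 at 0.30 and Abca1, which loads phospholipid onto apoA-I, at -0.27. The partners of Atp9a all lay under 1.5-fold: Dop1a was at -0.27, Dop1b at -0.22, Mon2 at -0.08 and Snx3 at 0.07. The genes of phosphatidylserine synthesis, Ptdss1 (-0.27) and Ptdss2 (0.09), and the decarboxylase gene Pisd (0.00) were all under 1.5-fold on their brightest probe sets. The 6 measured probe sets of Ptdss2 ran from -0.71 to 0.67.

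Of 11 genes of receptors for exposed phosphatidylserine and of proteins that bridge to it, 3 were at least 1.5-fold higher, against 9.15% of all genes. Tyro3, Havcr1 and Adgrb1, which were not called, had their Lpcat3fl/fl side below the floor. The receptor tyrosine kinase gene Axl read 510 in L-Lpcat3 KO and 279 in Lpcat3fl/fl liver (1.83-fold). Gas6, the ligand that bridges it to phosphatidylserine, read 1474 in L-Lpcat3 KO and 948 in Lpcat3fl/fl liver (1.56-fold). Timd4, a phosphatidylserine receptor of resident macrophages, read 248 in L-Lpcat3 KO and 144 in Lpcat3fl/fl liver (1.72-fold). Stab1 was at 0.40, while the related endothelial receptor gene Stab2 was at -0.04.

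**Figure D4:**
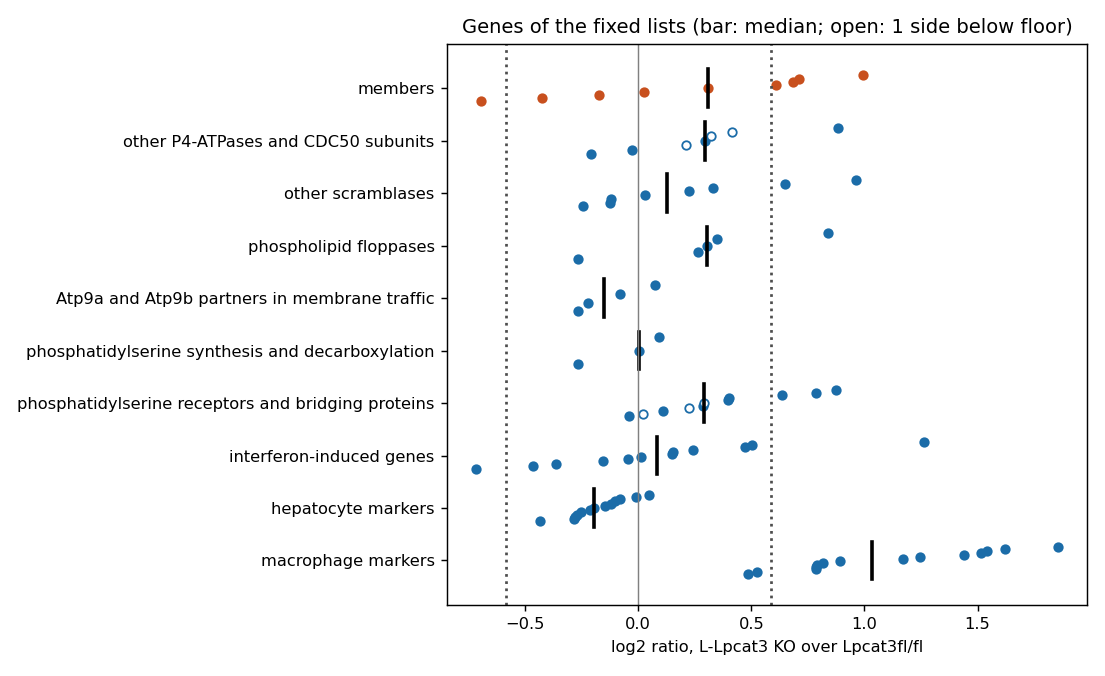
Points are the measured genes of each list, at the log2 ratio (L-Lpcat3 KO over Lpcat3fl/fl) of their brightest probe set; bars are list medians, open points have 1 side below the floor, and dotted lines mark 1.5-fold. The 9 members have a median of 0.31 (0.02 with the floor at the 75th percentile), hepatocyte markers one of -0.20 and macrophage markers one of 1.03.

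Whole liver holds many cell types, and markers of several were higher in L-Lpcat3 KO liver. In bulk RNA, fewer cells of a type and less RNA per cell cannot be told apart. Of 14 macrophage markers, 12 were higher by 1.5-fold or more in the L-Lpcat3 KO pool and 7 at least 2-fold, including C1qb at 3.07-fold. Their summed signal was 34083 in L-Lpcat3 KO and 15427 in Lpcat3fl/fl liver, a ratio of 2.21, and none was below the floor on both arrays. Of 7 lipid-associated macrophage markers, 6 were at least 2-fold higher. Itgax and Mmp12 among these 6, and Trem2, which was not called, had their Lpcat3fl/fl side below the floor. Signals of the 7 summed to 4665 in L-Lpcat3 KO and 1480 in Lpcat3fl/fl liver, a ratio of 3.15. Summed signals of stellate cell and myofibroblast markers (9 genes) were 17838 in L-Lpcat3 KO and 10571 in Lpcat3fl/fl liver. Of the 9, 6 were at least 1.5-fold higher. For 8 endothelial markers the summed signals were 9200 in L-Lpcat3 KO and 6861 in Lpcat3fl/fl liver, with 3 of the 8 at least 1.5-fold higher. B cell markers summed to 4537 in L-Lpcat3 KO and 898 in Lpcat3fl/fl liver, with 5 of 5 at least 2-fold higher. Among them Cd79a, Cd79b and Ms4a1 had their Lpcat3fl/fl side below the floor, so they counted as measured through the L-Lpcat3 KO array alone. The adipose markers Adipoq and Retn were at least 2-fold higher too, but both had their Lpcat3fl/fl side below the floor. Cfd and Plin1 had no probe set with 1 gene symbol. T cell and NK cell markers were mostly unmeasured, with 4 of 6 below the floor on both arrays. Of 4 neutrophil markers 1, S100a8, was at least 2-fold higher, with its Lpcat3fl/fl side below the floor. Of 5 cholangiocyte markers Krt19, Krt7 and Cftr were below the floor on both arrays. Epcam was at -0.09 and Sox9, with its L-Lpcat3 KO side below the floor, at -0.12. Hepatocyte markers had a median of -0.20, with 12 of 13 below 0 and none past 1.5-fold. Timd4 is in both the phosphatidylserine and the macrophage lists. The part of these cells in the higher signals of Ano6, Plscr1, Atp9a and Atp8a1, and of hepatocytes in the lower ones of Tmem30a, Atp11a and Atp8b1, was not tested.

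Further groups were read because of single members. Of 12 measured interferon-induced genes, the class to which Plscr1 belongs, 1 was at least 1.5-fold higher (Ifit2, 2.40-fold) and 1 lower (Ifit1, log2 ratio -0.72). Of all measured genes, 9.15% were at least 1.5-fold higher and 3.86% lower, so these counts show no shift of the class. The median of the 12 was 0.08. Platelet markers were read because Ano6 is known from platelets. All 3 measured ones were above 0 (Ppbp 0.65, with its Lpcat3fl/fl side below the floor, Pf4 0.42 and Itga2b 0.08), and their signals summed to 927 in L-Lpcat3 KO and 696 in Lpcat3fl/fl liver. The erythroid marker Alas2 read 1516 in L-Lpcat3 KO and 2305 in Lpcat3fl/fl liver (-0.60).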

How the data were processed

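Liver RNA pooled from 5 mice per genotype was measured on 1 array each. The authors ran MAS5 (version not given in the submitters' notes) and analysed the data with GenespringGX. The deposited signal intensities are linear, and leaving out 2% at each end gave a mean of 500 for either array. Such scaling assumes that most transcripts are equal. Chow arrays were not analysed here.

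Of 45101 probe sets, 34945 had 1 gene symbol and were kept, 932 had several, 9211 were unnamed here and 64 were controls. Symbols were updated by gene identifier through the RefSeq table of GRCm38.p6 (18032 of 18193 genes matched). The floor was the median of all values, 86.6, and ratios were taken as log2 per probe set. A gene was represented by its measured probe set of highest mean log2 signal. No test was possible with 1 pool per genotype, and calls are at 1.5-fold and 2-fold. A pool is a single sample, so no error between mice is known. The counting was tested on simulated data. All probe sets of the 9 members are given, and from each related list the genes of largest ratio. The members and lists were chosen with earlier results of these data known. Alternatives were median centring, quantile normalization, loess (span 0.3), other floors, no floor, a pseudocount of 50, leaving out _s_at and _x_at probe sets, and the mean of a gene's probe sets. Python 3.11.15, numpy 2.4.6, pandas 2.3.3, statsmodels 0.14.6 and matplotlib 3.10.9 were used.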

Additional observations from a re-analysis of the deposited data

How the results depend on the processing

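Each of the 19 measured member probe sets kept the sign of its log2 ratio under every one of the 8 alternatives that gave it a value. Of 142 such ratios, 141 moved by less than the spread of 0.31 among probe sets of one gene, and the exception was Atp11a when the floor was the 75th percentile (-0.22). Much of this was fixed in advance. All 19 lay above the floor on both arrays, so a lower floor, no floor or leaving out probe sets could not change their ratios. A pseudocount or a higher floor could shrink a ratio but could not reverse its sign. The number of member probe sets higher by 1.5-fold or more was 7 in the report, against 8.23% of all measured probe sets. It was 4 with the 75th percentile as floor, which leaves 12 member probe sets, against 3.73% of all. Without the _s_at and _x_at probe sets, which leaves 16, it was 4, against 8.13%. The count was 6 with quantile normalization (7.10% of all) or loess (7.32%) and 5 with a pseudocount (8.32%). With a floor at the 25th percentile it was 8 (16.3%), and with no floor 9 (22.2%). The number at least 1.5-fold lower was 1 in the report, 2 with a floor at the 25th percentile, 3 with no floor and 0 with one at the 75th. The probe sets added by a lower floor lie below 86.6 on both arrays. Counted by gene, 4 members were at least 1.5-fold higher in the report, against 9.15% of all genes. The count was 2 without the _s_at and _x_at probe sets (9.16%) and 1 by the mean of a gene's probe sets (8.29%). With the 75th percentile as floor it was 3 of 7 (4.02%). By gene, 1 member was lower in the report (3.86%) and 0 with that higher floor (2.29%). No member probe set or gene reached 2-fold under any alternative. Over the other P4-ATPase and CDC50 genes the median was 0.30, and -0.026 with no floor, where unmeasured genes enter it. No scaling moved the median of all measured probe sets by over 0.1 on the log2 scale. No paired analysis was possible because each genotype had 1 array. The Atp8a1 calls rest on signals near the floor, where the signal over background limits them.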
